A study of Homo sapiens with 6 samples.

Results

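The genes described here encode the nuclear lamins and proteins of the inner nuclear membrane, 10 genes measured by 45 probe sets out of 18837 genes and 49293 probe sets tested on the arrays. They were chosen by their role, as LMNB1, LMNB2, LMNA, LBR, TMPO, EMD, BANF1, SUN1, SUN2 and LEMD3, with results of this same comparison already known, so the values and adjusted p-values given for them are a description and no test of the group. A probe set is a group of probes read as 1 value, and it was taken for a gene where its only gene identifier in the authors' deposited table was that gene's. The cells were U251, an established line from a human glioma, that had received by lentivirus either a negative control short hairpin RNA (shCtrl, 3 arrays) or one against CPVL, a serine carboxypeptidase gene (shCPVL, 3 arrays). All 6 arrays therefore carry a lentiviral hairpin, and no untreated cells were compared. The labels name 1 hairpin group against CPVL and do not say whether replicates were separate cultures or whether cells were pooled or clonal, so the spread on which every p-value rests may be technical.

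The nuclear lamina is a protein meshwork under the inner nuclear membrane. Lamins B1 and B2 keep a lipid anchor and stay at the membrane, whereas lamins A and C, both made from LMNA, also occur inside the nucleus. Membrane proteins such as the lamin B receptor, the LAP2 proteins, emerin and MAN1 hold lamins and chromatin at the envelope, and SUN proteins pass through the inner membrane to link the lamina with the cytoskeleton. In the brain, extra copies of LMNB1 are known as the cause of an adult-onset leukodystrophy, and low lamin B1 is known from cells that have stopped dividing for good.

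In shCPVL cells, 7 of the 10 genes fell, LMNA rose, and EMD and SUN1 did not pass the threshold, each gene being read by its brightest probe set over the 6 arrays. LMNB1 had the greatest difference, at 44.3% of the control level, followed by LBR at 62.4%, TMPO at 64.0%, LMNB2 at 67.8%, LEMD3 at 73.7%, SUN2 at 75.9% and BANF1 at 88.7%. LMNA stood at 115% of the control level. Fell and rose here mean an adjusted p under 0.05 in limma, a linear model fitted to the log2 values of all probe sets with Benjamini-Hochberg adjustment over all of them. When 1 array was left out in turn, LMNA kept its call in the fit without shCtrl replicate 2 and lost it without each of the other 5, BANF1 kept it without shCtrl replicate 3 and lost it without each of the other 5, and the other 6 genes kept theirs in all 6 fits.

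CPVL, the targeted gene, was checked first. Its log2 value was 8.24, 8.39 and 8.18 in the shCtrl arrays and 7.38, 7.25 and 7.21 in the shCPVL arrays, a difference of −0.99 (SE 0.07, limma adjusted p = 5.9e-05). The groups did not overlap, and CPVL stood at 50.5% of the control level with a 95% interval of 44.9% to 56.7%. A two-sided exact permutation test cannot go below 0.1 with 3 arrays in each group, and p = 0.1 is what it gave.

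The whole table gives the setting in which these counts stand. Over all probe sets 18.5% were called, 10.6% lower and 7.93% higher in shCPVL, and over all genes 19% were called, 11% lower and 8.01% higher. Of all probe sets, 35% had groups that did not overlap. Of the 45 probe sets of the 10 genes, 27 were called lower, 5 were called higher and 13 were not called, and in 36 the groups did not overlap. By gene, 8 of 10 were called. Because the choice was made with this comparison known, nothing is read from the contrast of these counts. The median difference was −0.42 on the log2 scale over the 10 genes and −0.01 over all genes. The 9127 calls over the table became 5889 without shCtrl replicate 1 and 5648 without shCPVL replicate 2. Array medians lay between 6.85 and 6.87 on the log2 scale, and arrays correlated at 0.997 to 0.999 within groups and at 0.992 to 0.993 between groups. The median of the 18 hybridisation control probe sets, spiked in at fixed amounts, was higher in every shCPVL array (10.59 ± 0.15, SD, n = 3) than in every shCtrl array (10.27 ± 0.06, SD, n = 3; exact permutation p = 0.1). The median of the 27 labelling control probe sets was also higher in every shCPVL array (6.60 ± 0.07, SD, n = 3) than in every shCtrl array (6.41 ± 0.12, SD, n = 3; exact permutation p = 0.1). The part of these controls in the results was not tested. Probe sets at the 3′ and 5′ ends of GAPDH, which read RNA integrity, differed by −0.06 in both groups.

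**Figure D1:**
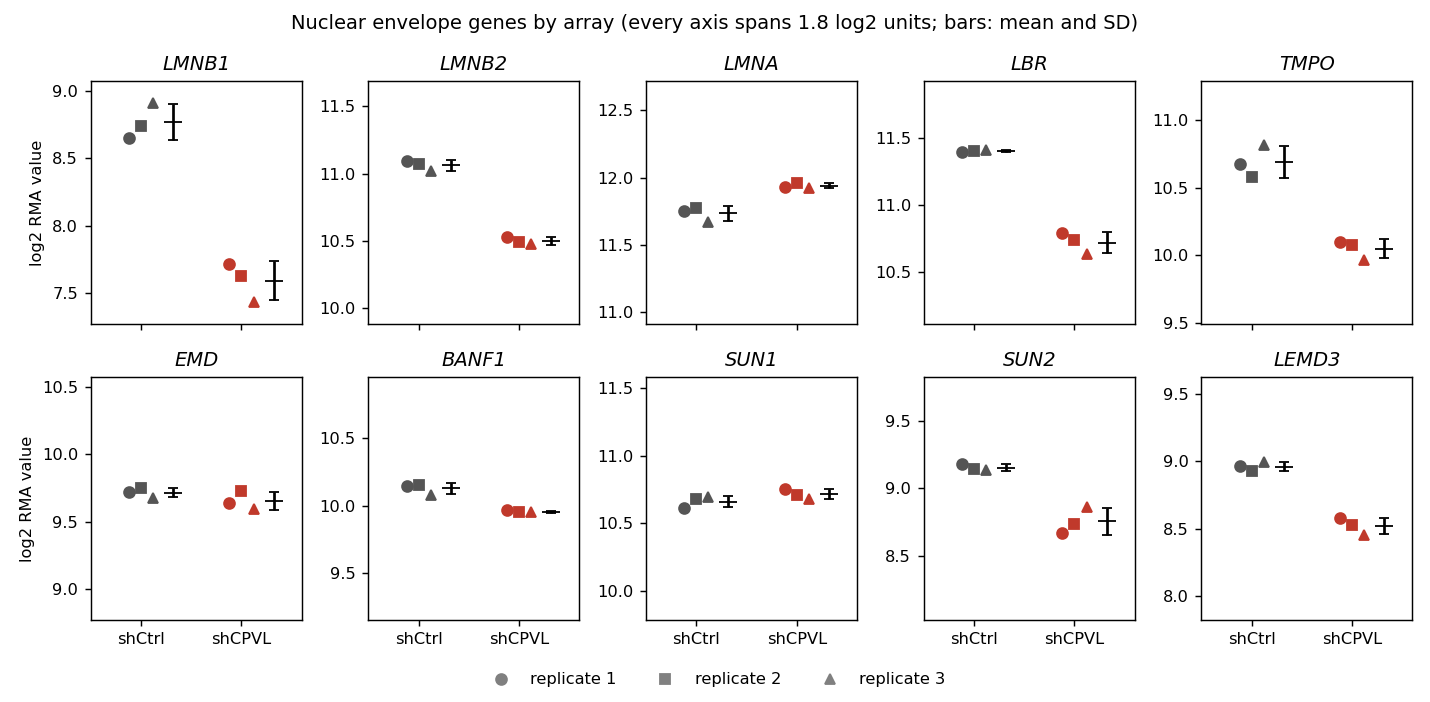
Log2 expression of the brightest probe set of each of the 10 genes in every array, with the mean of each group. The shCPVL arrays lie below all shCtrl arrays for LMNB1, LMNB2, LBR, TMPO, BANF1, SUN2 and LEMD3, and above them for LMNA. For EMD and SUN1 the groups overlap.

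The promoter windows of 5 of these genes are shown as examples of windows that hold a searched word, 4 from genes that fell and 1 from LMNA, which rose. The windows of LBR and BANF1, which fell too, held none of the words. They are RefSeq sequences of the GRCh38.p14 assembly, from 250 bases before to 50 bases after the start of transcription, on the gene's strand from 5′ to 3′. Capitals mark matches to 3 words searched on both strands, which were chosen after the values had been seen. The words were the E2F-type words TTTGGCGC, TTTGCCGC, TTTCGCGC and TTTCCCGC, the cell cycle homology word TTTGAA, and CCAAT, the box bound by NF-Y. The E2F-type words and TTTGAA are known from promoters of genes used in DNA replication and mitosis. None of the words overlaps another in the windows shown.
LMNB1, window 2, chr5:126776886-126777185, plus strand: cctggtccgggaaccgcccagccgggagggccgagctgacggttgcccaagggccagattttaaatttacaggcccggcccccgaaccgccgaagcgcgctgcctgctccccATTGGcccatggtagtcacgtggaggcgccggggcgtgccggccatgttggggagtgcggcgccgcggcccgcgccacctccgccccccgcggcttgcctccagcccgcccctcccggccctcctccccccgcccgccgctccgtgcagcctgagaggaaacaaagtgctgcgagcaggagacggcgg
LMNB2, chr19:2456910-2457209, minus strand: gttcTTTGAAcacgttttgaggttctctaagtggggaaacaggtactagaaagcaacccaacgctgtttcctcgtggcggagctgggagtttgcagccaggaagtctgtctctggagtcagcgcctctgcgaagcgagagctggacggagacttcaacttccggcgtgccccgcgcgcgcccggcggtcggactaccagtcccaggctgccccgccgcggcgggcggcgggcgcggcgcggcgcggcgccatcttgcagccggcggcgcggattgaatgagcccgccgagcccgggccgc
LMNA, window 1, chr1:156082323-156082622, plus strand: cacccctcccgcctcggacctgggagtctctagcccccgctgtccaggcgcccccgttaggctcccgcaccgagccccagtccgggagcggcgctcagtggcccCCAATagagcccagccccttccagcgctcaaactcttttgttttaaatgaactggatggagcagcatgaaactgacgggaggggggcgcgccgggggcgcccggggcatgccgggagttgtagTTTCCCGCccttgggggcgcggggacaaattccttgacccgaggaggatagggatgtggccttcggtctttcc
TMPO, window 1, chr12:98515323-98515622, plus strand: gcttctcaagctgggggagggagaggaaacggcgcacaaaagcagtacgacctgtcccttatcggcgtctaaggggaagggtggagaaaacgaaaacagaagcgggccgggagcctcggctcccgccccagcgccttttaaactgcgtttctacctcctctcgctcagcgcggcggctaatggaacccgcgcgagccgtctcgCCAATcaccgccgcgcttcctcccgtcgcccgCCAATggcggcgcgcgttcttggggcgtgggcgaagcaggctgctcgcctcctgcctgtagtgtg
LEMD3, chr12:65169333-65169632, plus strand: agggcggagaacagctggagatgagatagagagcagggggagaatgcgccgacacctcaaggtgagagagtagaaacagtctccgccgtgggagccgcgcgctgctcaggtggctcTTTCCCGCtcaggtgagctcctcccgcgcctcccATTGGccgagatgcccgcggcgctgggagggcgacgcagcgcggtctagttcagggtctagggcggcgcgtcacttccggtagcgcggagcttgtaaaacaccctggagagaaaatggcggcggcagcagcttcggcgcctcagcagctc

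RefSeq held 15 such windows for 9 of the 10 genes, and no window was used for SUN1. An E2F-type word lay in 2 windows, that of LEMD3, which fell, and 1 window of LMNA, which rose. TTTGAA lay in the window of LMNB2 and in 1 window of SUN2, both of which fell. CCAAT lay in 7 windows of 6 genes, among them EMD, which did not pass the threshold. Among all 35116 windows of the same length, 3.31% held an E2F-type word, 15.2% held TTTGAA and 34.6% held CCAAT. A match describes letters in a window and is not a measured binding site.

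LMNB1 (Entrez 4001) encodes lamin B1, a B-type lamin. Its brightest probe set read 8.65, 8.74 and 8.91 in the shCtrl arrays and 7.72, 7.63 and 7.43 in the shCPVL arrays. Every shCPVL array lay below every shCtrl array, with a gap wider than the range within either group. The means were 8.77 ± 0.13 and 7.59 ± 0.14 (SD, n = 3 each), a difference of −1.18 (SE 0.09, limma adjusted p = 7.4e-05), and the 95% interval ran from −1.38 to −0.97. By that difference LMNB1 ranked 16 from the lowest among the 18837 genes. It is the greatest fall among the 10 genes.

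The other probe sets of LMNB1 gave nearly the same size. One of the 4 held values identical to the brightest in every array and adds nothing, which leaves 3 distinct readings. One read 8.57, 8.56 and 8.48 in shCtrl and 7.51, 7.33 and 7.32 in shCPVL, a difference of −1.15 (SE 0.07). The other read 8.30, 8.38 and 8.20 against 7.19, 7.21 and 7.02, a difference of −1.16 (SE 0.07). In both, no shCPVL array reached the level of a shCtrl array. A further probe set, assigned by the authors to both LMNB1 and PCIF1 and so left out by the rule, read 8.86, 8.94 and 8.84 against 7.64, 7.58 and 7.41, a difference of −1.33 (SE 0.07). The deposited alignment of the brightest probe set is chr5:126112832-126172808 on the plus strand, and the build of the deposited alignments is not given in the sources used here. Only 14 of the 45 alignments overlapped their gene's GRCh38.p14 span, so the coordinates of probe sets and promoters are not to be joined.

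LMNB2 (Entrez 84823) encodes lamin B2, the other B-type lamin. The brighter of its probe sets read 11.09, 11.07 and 11.02 in shCtrl and 10.53, 10.49 and 10.48 in shCPVL. The 3 readings within a group lay close together and the groups were far apart in comparison. The difference was −0.56 (SE 0.05, limma adjusted p = 0.000185). Its dimmer probe set read 7.67, 7.74 and 7.54 against 7.01, 6.97 and 6.87, a difference of −0.70 (SE 0.07, adjusted p = 0.000241). Both probe sets align to chr19:2428163-2456994 on the minus strand. Both B-type lamins thus fell in every probe set that reads them.

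LMNA (Entrez 4000) encodes lamins A and C through alternative splicing. Its brightest probe set read 11.76, 11.78 and 11.67 in shCtrl and 11.93, 11.96 and 11.93 in shCPVL. All 3 shCPVL arrays lay above all 3 shCtrl arrays, by a margin wider than the range within either group. The difference was 0.20 (SE 0.05, limma adjusted p = 0.0299), with a 95% interval of 0.08 to 0.32. The median of the differences of its 7 probe sets was 0.21. By the median level of its probe sets in each array, LMNA differed by 0.32. In every array that median was the reading of the same single probe set, so it does not summarise all 7. Of the 7 probe sets of LMNA, 5 were called higher, with differences of 0.20 to 0.33, and the other 2 had differences of 0.14 (adjusted p = 0.10) and 0.11 (adjusted p = 0.40). The greatest, 0.33 (SE 0.06, adjusted p = 0.0043), came from readings of 11.30, 11.28 and 11.19 in shCtrl and 11.53, 11.61 and 11.62 in shCPVL.

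All 7 probe sets of LMNA carry the suffix x_at or s_at. The manufacturer gives these to probe sets whose probes can match several transcripts, including those of other genes. LMNA therefore has no reading free of such probe sets. When 1 array was left out, 3 to 5 of the 7 were still called higher, while the brightest had adjusted p-values between 0.042 and 0.12. Their alignments differ in extent, from chr1:156052368-156109878 for the brightest to chr1:156105523-156107952 for the dimmest. No transcript is named for a probe set, so lamin A and lamin C could not be read apart. LMNA is the only member called higher, and the sign of its difference was positive in all 7 probe sets.

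**Figure D2:**
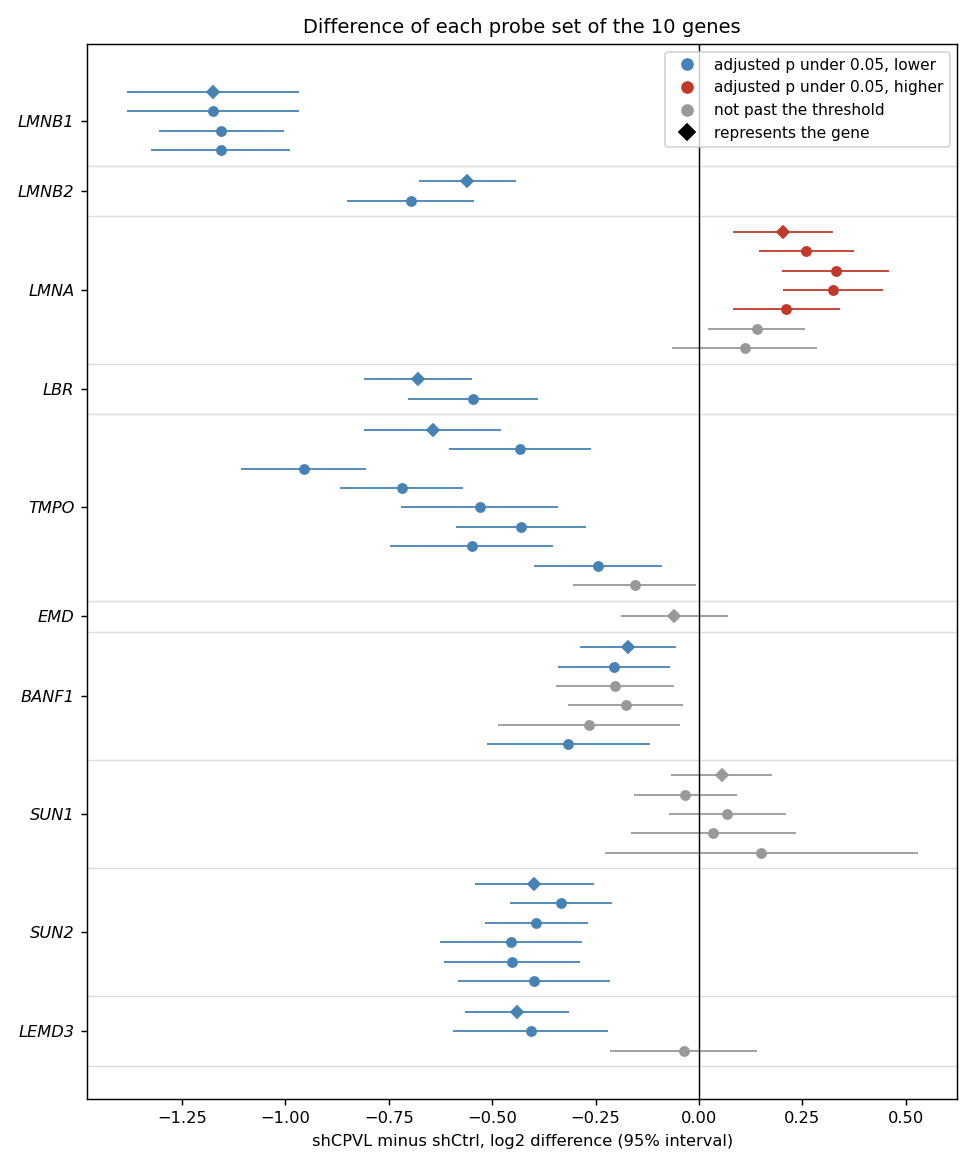
Difference between shCPVL and shCtrl on the log2 scale for each of the 45 probe sets, grouped by gene, with 95% intervals and colour for the call. The probe sets of LMNB1 sit between −1.18 and −1.15, all those of LMNA lie above 0, and those of TMPO spread from −0.96 to −0.16.

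LBR (Entrez 3930) encodes the lamin B receptor, which binds B-type lamins and heterochromatin and also carries a sterol reductase domain used in cholesterol synthesis. The brighter reading was 11.39, 11.40 and 11.40 in shCtrl and 10.79, 10.74 and 10.63 in shCPVL. The shCtrl arrays were almost equal, and the shCPVL arrays were all lower. The difference was −0.68 (SE 0.06, limma adjusted p = 0.000118). The second probe set, which aligns to the shorter span chr1:225600231-225615755, read 8.26, 8.42 and 8.21 against 7.83, 7.70 and 7.73, a difference of −0.55 (SE 0.07, adjusted p = 0.000936). Both readings of the gene fell without overlap of the groups.

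TMPO (Entrez 7112) encodes the LAP2 proteins, of which some span the inner membrane and bind B-type lamins and LAP2 alpha binds lamins A and C inside the nucleus. Its brightest probe set read 10.68, 10.58 and 10.82 in shCtrl and 10.10, 10.08 and 9.97 in shCPVL, a difference of −0.64 (SE 0.07, limma adjusted p = 0.000543). Of its 9 probe sets 8 were called lower. The greatest difference came from a probe set that read 8.84, 8.88 and 8.85 in shCtrl and 8.00, 7.93 and 7.77 in shCPVL, a difference of −0.96 (SE 0.07, adjusted p = 3.9e-05), or 51.6% of the control level. Both groups were tight there and did not overlap.

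The probe sets of TMPO gave changes of different sizes. The pair that share the alignment chr12:98909408-98942735 differed by −0.96 and −0.72, and the pair at chr12:98909629-98931483 by −0.55 and −0.53. A probe set at chr12:98909407-98928706 read 9.10, 9.26 and 8.99 in shCtrl and 8.75, 8.63 and 8.67 in shCPVL, a difference of −0.43 (SE 0.08, adjusted p = 0.0047). The 3 at chr12:98925471-98926564 differed by −0.43, −0.24 and −0.16, and the last was not called (adjusted p = 0.15). The last 2 had shCtrl means of 3.80 and 3.55, near the median of 3.60 of the 23 background control probe sets. The differences between probe sets of the gene were described and not tested.

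EMD (Entrez 2010) encodes emerin, a protein with a LEM domain, the fold by which envelope proteins bind the chromatin protein BAF. Its only probe set, at chrX:153607431-153609883, read 9.72, 9.75 and 9.68 in shCtrl and 9.64, 9.73 and 9.60 in shCPVL. The groups overlapped. The difference was −0.06 (SE 0.06, limma adjusted p = 0.57). Its 95% interval of −0.19 to 0.07 leaves out falls of the size seen in the brightest probe sets of LEMD3 and TMPO. It holds the differences of their probe sets that were not called (−0.04 and −0.16).

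LEMD3 (Entrez 23592) encodes MAN1, a LEM domain protein that also binds SMAD proteins and dampens TGF-beta signalling. Its brightest probe set read 8.96, 8.93 and 8.99 in shCtrl and 8.58, 8.53 and 8.46 in shCPVL, a difference of −0.44 (SE 0.06, limma adjusted p = 0.000905). A second probe set read 7.04, 7.10 and 6.81 against 6.63, 6.50 and 6.60, a difference of −0.41 (SE 0.08, adjusted p = 0.0095). The last, with the same alignment at chr12:65563343-65642107, read 6.55, 6.62 and 6.64 against 6.49, 6.47 and 6.73 and was not called (−0.04, adjusted p = 0.82). In the first pair no shCPVL array reached a shCtrl array, and in the last shCPVL replicate 3 was the highest of all 6 arrays. The probe sets of LEMD3 therefore disagreed.

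BANF1 (Entrez 8815) encodes BAF, the small protein that bridges DNA and LEM domain proteins and helps to re-form the envelope after mitosis. Its highest readings were 10.15, 10.15 and 10.08 in shCtrl and 9.96, 9.95 and 9.95 in shCPVL, a difference of −0.17 (SE 0.05, limma adjusted p = 0.048). That probe set is aligned by the authors to chr2:231589466-231590466 at 77.68%, and not to chromosome 11 as are the other 5, so what it reads is uncertain. The brightest of those on chromosome 11 read 9.76, 9.80 and 9.64 against 9.52, 9.51 and 9.54, a difference of −0.21 (SE 0.06, adjusted p = 0.043). In all 6 probe sets the groups did not overlap and the differences lay between −0.32 and −0.17, but 3 were called, and 0 to 5 were called when 1 array was left out. The greatest of them came from a dim probe set with means of 4.71 and 4.40. These lie below the mean of 4.95 of the background controls in shCtrl and above their median of 3.60.

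The SUN genes encode the inner membrane side of the LINC complex, the bridge between nucleus and cytoskeleton. SUN2 (Entrez 25777) fell in all 6 of its probe sets, with differences of −0.45 to −0.33 and adjusted p-values of 0.0015 to 0.0095. Its brightest read 9.18, 9.14 and 9.13 in shCtrl and 8.66, 8.73 and 8.86 in shCPVL, a difference of −0.40 (SE 0.06, limma adjusted p = 0.0029). The groups did not overlap in any of the 6 probe sets, which align within chr22:39130734-39162341.

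SUN1 (Entrez 23353) encodes the other widely expressed SUN protein. By its brightest probe set it read 10.61, 10.68 and 10.69 in shCtrl and 10.76, 10.71 and 10.68 in shCPVL. The groups overlapped, and the difference was 0.06 (SE 0.05, limma adjusted p = 0.57; 95% interval −0.07 to 0.18). Of its 5 probe sets limma called 0, with differences of −0.03 to 0.15 and adjusted p-values of 0.535 to 0.852, and 0 had an unadjusted p under 0.05 or an FDR under 0.05 in the authors' deposited table. The 4 probe sets assigned to both SUN1 and its neighbour GET4, left out by the rule, had differences of −0.08 to 0.11 and were not called either. The difference between the changes of SUN1 and SUN2 was not itself tested.

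**Figure D3:**
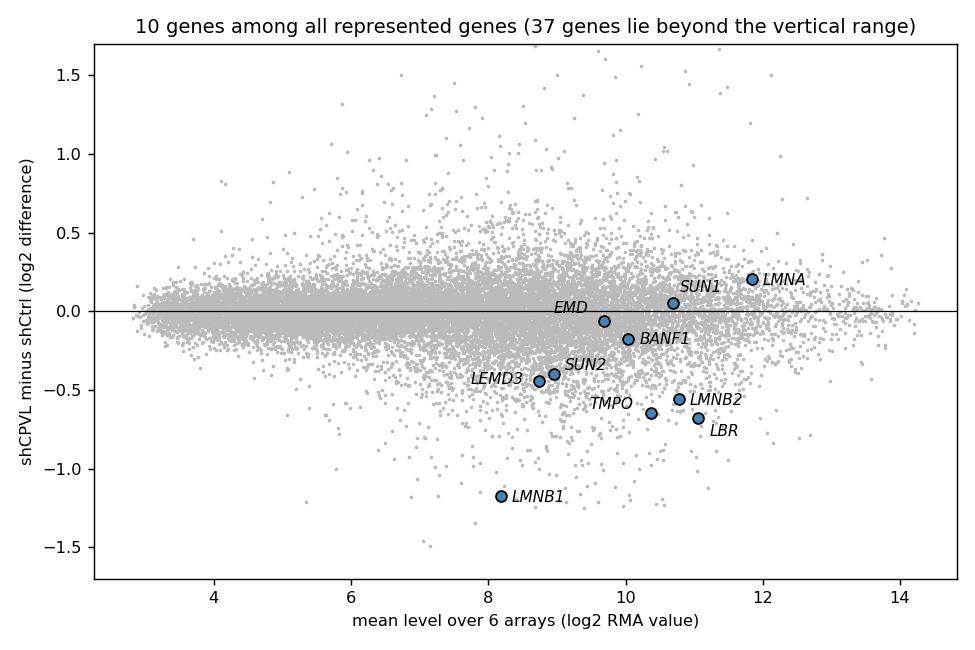
Difference between shCPVL and shCtrl on the log2 scale against the mean log2 level for all genes, with the 10 genes marked. LMNB1 lies near the lower edge of the cloud at −1.18, and EMD and SUN1 lie near 0. Genes beyond ±1.7 are not drawn (37 of 18837).

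The shCPVL arrays were not equal in the 45 probe sets. The lowest of the shCPVL arrays was replicate 3 in 24 probe sets, replicate 2 in 14 and replicate 1 in 7. For LMNB1 and LBR the brightest probe set was lowest in replicate 3, and for SUN2 it was lowest in replicate 1. The genes most like LMNB1 over the 6 arrays, among 9402 genes above the median level, were HMGN1 (r = 0.999), NCAPG2 (r = 0.998), YAP1 (r = 0.998), MLLT11 (r = 0.998) and ARL6IP6 (r = 0.997). Those most like SUN2 were SLC25A1 (r = 0.999), POLD1 (r = 0.995), PTGES2, ALKBH4 and SUV39H1 (r = 0.992 each). These correlations share the same 2 groups of 3 arrays, and 1816 genes had an r above 0.9 with LMNB1 and 1171 with SUN2, so they describe the arrays and carry no test.

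Other genes of the envelope were counted in 9 lists, chosen with earlier results of these data known. Of 89 genes measured, 22 fell, 2 rose and 65 were not called, with a median difference of −0.07, while over all genes 11% were called lower and 8.01% higher. The count of 24 calls became 14 without shCtrl replicate 1 and 15 without shCtrl replicate 2 or without shCPVL replicate 2. It became 41, with 8 higher, under an intensity trend, array weights or the authors' deposited table.

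Among the partners of SUN proteins, 1 of 8 was called. SYNE2, which encodes a nesprin that ties SUN proteins to actin, rose from 9.98 to 10.33 (0.35, SE 0.06, limma adjusted p = 0.0047). SYNE1, the gene of another nesprin, was not called (−0.06, adjusted p = 0.58). Without x_at and s_at probe sets SYNE2 stood at 0.14 (adjusted p = 0.117). Of 7 other inner membrane proteins, NRM, the gene of nurim, fell by 0.61 (SE 0.06, adjusted p = 0.000213). Of 7 torsin genes and cofactors, which act in the space between the nuclear membranes, 3 fell. They were TOR1AIP1, which encodes the lamin-binding protein LAP1 (−0.37), TOR1B (−0.26) and TOR3A (−0.23). The probe set of TOR1AIP1 is aligned by the authors to chromosome 9 at 39.78%, while the gene lies on chromosome 1, so what it reads is uncertain. Among the 6 fits without 1 array, TOR1B kept its call in 2 (without shCtrl replicate 3 or shCPVL replicate 1) and TOR3A in 1 (without shCPVL replicate 1).

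Of 4 measured genes that process prelamin, ICMT, the methyltransferase of the farnesylated end, fell by 0.21 and 3 were not called. By the median level of its probe sets in each array, ICMT differed by −0.35. Of the other 3, ZMPSTE24, the protease that matures lamin A, differed by −0.08 (adjusted p = 0.41). Of 11 genes that seal the envelope after mitosis, SPAST (−0.61) and CHMP2B (−0.53) fell and IST1 rose (0.29). SPAST cuts microtubules and CHMP2B is an ESCRT-III subunit. Of 8 envelope kinases and lipid phosphatases, CTDNEP1, a phosphatase acting on lipin, fell by 0.19. The calls of ICMT and CTDNEP1 were each kept in 1 of the 6 fits without 1 array, that without shCtrl replicate 3.

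Of 11 chromatin tethers and partners, 4 fell and 7 were not called. CBX5, which encodes HP1 alpha, the heterochromatin protein that binds LBR, differed by −0.57 (SE 0.05, limma adjusted p = 0.000136). SUV39H1 and SUV39H2, methyltransferases that make the histone mark bound by HP1, differed by −0.49 and −0.24. SUV39H1 stood at −0.17 (adjusted p = 0.322) without x_at and s_at probe sets, and SUV39H2 kept its call in 1 of the 6 fits without 1 array, that without shCPVL replicate 1. HDAC3, a histone deacetylase that works with LAP2 beta and emerin, differed by −0.43. Of 31 nucleoporins, 9 fell, and 22 were not called, while over all genes 11% were called lower and 8.01% higher. Limma called 0 of the nucleoporins higher, as did the authors' deposited table at the same threshold, and 0 were higher at an unadjusted p under 0.05. The greatest falls were those of NUP35 (−0.77), SEH1L (−0.51), NUP188 (−0.39) and NDC1 (−0.35). Of the 2 sterol reductases homologous to LBR, DHCR7 fell by 0.58 and TM7SF2 differed by 0.09 (adjusted p = 0.42).

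**Figure D4:**
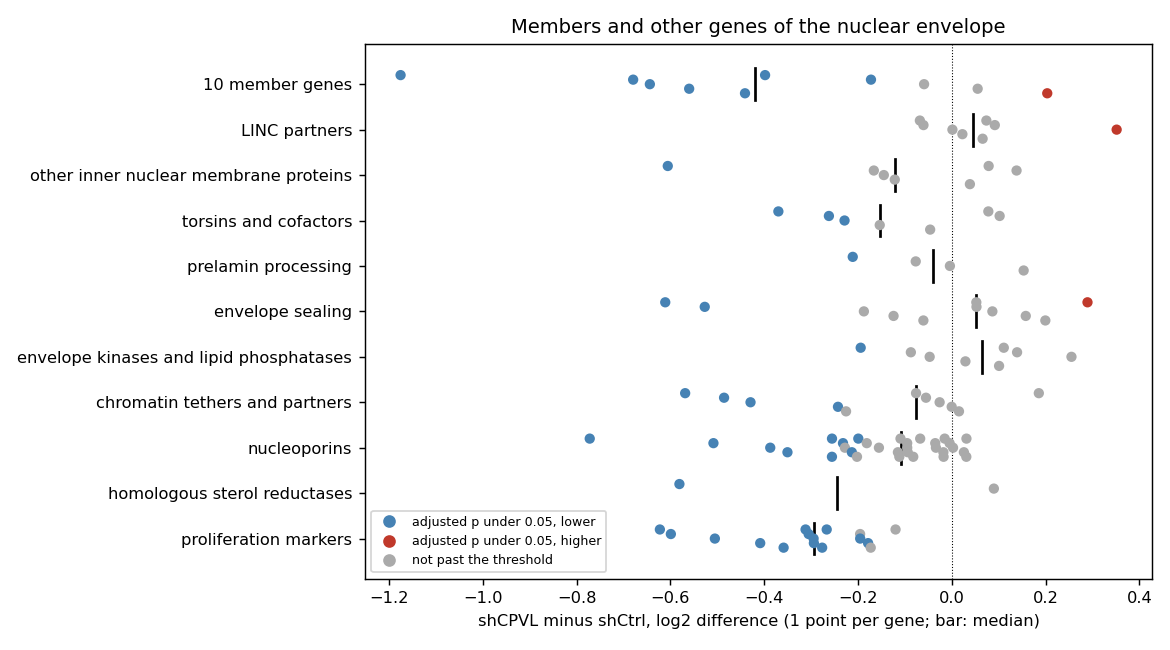
Difference between shCPVL and shCtrl on the log2 scale for each gene of the 10 members, the 9 lists of other envelope genes and the proliferation markers, with colour for the call and a bar at the median. Medians of the other envelope lists lie between −0.25 and 0.06, that of the proliferation markers at −0.29 and that of the 10 genes at −0.42.

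Markers of dividing cells moved beside these genes. Over all genes 11% were called lower and 8.01% higher, with a median difference of −0.01. Of 16 proliferation markers 13 fell and 3 were not called, with a median difference of −0.29. MCM2 (−0.62) and MCM6 (−0.60), subunits of the replicative helicase, MKI67 (−0.51), the gene of Ki-67, and CCNB2 (−0.41), a mitotic cyclin, were the greatest. Summed on the linear scale, the 16 markers ranged from 46565 to 47331 in shCtrl and from 37722 to 39019 in shCPVL. Their part in the results for the lamins was not tested. On these bulk arrays, fewer cells of a kind and less RNA per cell cannot be told apart.

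The labelled cell type was checked against markers. The 10 astroglial and glioma markers had shCtrl means from 7.47 (S100B) to 14.24 (VIM) on the log2 scale, with a median of 11.65. Among them CD44 stood at 13.19, SOX2 at 12.02 and SLC1A3 at 8.65. Of these 10 markers 5 fell and 5 were not called, while over all genes 11% were called lower and 8.01% higher. GFAP, the astrocyte filament, differed by −1.01 and FABP7 by −0.68 (−0.38 by the median level of its probe sets). SLC1A3, a glutamate transporter, differed by −0.56 and GJA1, connexin 43, by −0.49. The summed level of the 10 ranged from 47793 to 48271 in shCtrl and from 43850 to 45580 in shCPVL, and its part in the results was not tested. Of 8 microglia markers limma called 0, with CD68 at 0.23 and CX3CR1 at −0.09, and PTPRC lay at the background level (3.41 in shCtrl). Of 6 oligodendrocyte markers (OLIG2 −0.22) and 5 endothelial markers (CLDN5 −0.06, KDR −0.05) it also called 0. At an unadjusted p under 0.05, 1 microglia marker was higher and 1 oligodendrocyte marker lower, and 0 of these 3 lists passed in the authors' deposited table. Of 7 neuronal markers, SYT1 (0.48) and NEFL (0.36) rose, although NEFL stood at −0.13 when x_at and s_at probe sets were left out, and of 5 epithelial markers KRT18 rose by 0.23. By the median level of its probe sets in each array, SYT1 differed by 0.19 (adjusted p = 0.04). Among the 6 fits without 1 array, NEFL kept its call in 2 (without shCtrl replicate 2 or 3) and KRT18 in 2 (without shCtrl replicate 2 or shCPVL replicate 3). Summed on the linear scale, the microglia markers ranged from 525 to 579 in shCtrl and from 558 to 621 in shCPVL. The neuronal markers ranged from 11000 to 14089 in shCtrl and from 15543 to 16558 in shCPVL. Most of that sum was NEFL, with log2 means of 13.54 in shCtrl and 13.89 in shCPVL. The median neuronal marker stood at 7.25 in shCtrl and 7.27 in shCPVL, and 5 of the 7 were not called.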

How the data were processed

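Total RNA from U251 cells was labelled with a 3′ in vitro transcription kit and hybridised to Affymetrix arrays, per the labels' protocols. The authors deposited log2 values per probe set. The submitters' processing notes name RMA, and its version and the build are not given in the sources used here. RMA gives all arrays the same distribution, so a change common to most genes cannot be seen, and background and saturation compress differences. A second deposited table holds the authors' comparison, with a log2 fold change, an unadjusted p-value, an FDR, a linear fold ratio and a signed linear fold (recorded here as a score), per the file headers. Its gene identifiers and alignments were used.

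Of 49395 probe sets, 102 array controls were left out. Of the rest, 46869 had 1 identifier, and symbols came from the RefSeq table of GRCh38.p14. The log2 values were fitted with limma 3.58.1 in R 4.3.3 (lmFit and eBayes, two-sided, Benjamini-Hochberg, threshold 0.05), a fit tested on simulated data. A gene is its brightest probe set over all arrays. Members, lists and motif words were chosen with earlier results of these data known. By rule the text names every member, CPVL, up to 4 called genes per list (2 where none was called), and the 5 genes most like LMNB1 and SUN2. Of the lists, SYNE1, ZMPSTE24, TM7SF2, S100B, VIM, CD44, SOX2 and PTPRC are named outside that rule. The planned comparison of transcript variants used alignments, because probe sets carry no transcript names. FNTB and CHMP3 were not represented, and 1 marker gene that the rule names is not reported here. Alternatives were other normalizations, moderation, filters, a replicate block and leaving out each array. The number of arrays limits the precision.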

Additional observations from a re-analysis of the deposited data

How the results depend on the processing

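The 10 genes gave 199 values under alternatives, of which 181 kept their direction and their side of the threshold, 18 lost the call and none changed sign. LMNA lost its call in 5 of 6 fits without 1 array (0.17 to 0.22) and BANF1 in 5 of 6 (−0.20 to −0.16). Deviations from the group means correlated at −0.25, 0.09 and 0.22 between arrays of the same replicate number. Between arrays of unlike number they correlated at −0.41 to 0.36. With 3 arrays in each group, these values cannot settle whether the numbers pair the samples. With the replicate number as a block, 7672 probe sets were called over the table, 3 member probe sets and 0 member genes were called higher, LMNA stood at 0.20 (adjusted p = 0.057) and BANF1 at −0.17 (adjusted p = 0.09). With a minimum fold of 1.2 (limma's treat), 1538 probe sets were called over the table, 668 of them higher. Of the members, 11 probe sets and 4 genes were called, with 7 other envelope genes, and all of these were lower. In that setting SUN2, LEMD3, LMNA and BANF1 had 0 probe sets called. Without x_at and s_at probe sets, 5555 probe sets and 18 member probe sets were called, 0 of them and 0 member genes higher, 1 other envelope gene rose, LMNA had no value, BANF1 was at −0.21 (adjusted p = 0.054) and NEFL reversed to −0.13. Array weights gave 21693 calls. Array weights, a moderation trend and the authors' deposited table each called 41 other envelope genes, 8 of them higher. A second quantile normalization gave 6 higher, and leaving out the dimmest 40% gave 5. Without 1 array each, calls ranged from 5648 to 8006 over the table, from 14 to 22 among other envelope genes (lower 12 to 20, higher 2 to 4), and from 3 to 5 among member probe sets called higher, with 0 to 1 member genes called higher.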
